A study of Mus musculus with 11 samples.

Results

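The Fc receptors for IgG and IgE are 8 genes: Fcgr1, Fcgr3, Fcgr4 and Fcgr2b, whose products bind IgG, Fcer1a, Ms4a2 and Fcer2a, whose products bind IgE or sit in its receptor, and Fcer1g, the signalling chain that most of them use. They were taken by name from the scanner files, where 13 of 41174 probes, standing for 8 of 27670 genes, belong to them. The probe for Fcgr4 carries the older name Fcgr3a in the files and was recognised by its RefSeq accession. Fcgr2b has 3 probes, Fcgr1, Fcgr3 and Fcer1g have 2 each, and the other 4 genes have 1. All but the Ms4a2 probe passed the background filter (2 or more of the 11 arrays well above background), so 7 of the 8 genes could be tested.

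Total RNA of whole mouse lung was measured on 11 one-colour (Cy3) Agilent arrays. The groups are littermate controls, called wild type here, given saline (3 arrays) or OVA (3 arrays), and Foxa3 knockouts (Foxa3-/-) given saline (2 arrays) or OVA (3 arrays). OVA is by background ovalbumin, an egg protein used as an allergen, and Foxa3 encodes a forkhead transcription factor. Strain, age, sex, the targeted allele, the part of Foxa3 that it removes and the challenge schedule are not given in the sources used here. Nothing in the labels ties an array to a separate animal, so p-values measure the spread between these samples, which may be technical.

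Receptors for IgG bind the constant part of antibodies that have coated a particle or antigen. The activating receptors FcγRI (Fcgr1), FcγRIII (Fcgr3) and FcγRIV (Fcgr4) signal through the FcRγ chain (Fcer1g), whose phosphorylated motif recruits the kinase Syk, while FcγRIIB (Fcgr2b) carries an inhibitory motif that recruits the phosphatase SHIP1 (Inpp5d). On mast cells and basophils the high-affinity IgE receptor is built from an IgE-binding α chain (Fcer1a), a β chain (Ms4a2) and the same γ chain, and CD23 (Fcer2a) is the low-affinity IgE receptor of B cells.

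The 250 bases before the transcription start are shown for the 4 IgG receptor genes, since the results turn on how these 4 genes differ. The sequences are from RefSeq (GRCm38.p6), given 5′ to 3′ on the gene's strand. They lie at chr3:96293970-96294219 on the minus strand for Fcgr1, chr1:171059395-171059644 on the minus strand for Fcgr3 (the second of 2 annotated starts), chr1:171018676-171018925 on the plus strand for Fcgr4 and chr1:170976072-170976321 on the minus strand for Fcgr2b. Capitals mark matches to the core GAGGAA of the myeloid factor PU.1, which reads TTCCTC on the other strand.
Fcgr1: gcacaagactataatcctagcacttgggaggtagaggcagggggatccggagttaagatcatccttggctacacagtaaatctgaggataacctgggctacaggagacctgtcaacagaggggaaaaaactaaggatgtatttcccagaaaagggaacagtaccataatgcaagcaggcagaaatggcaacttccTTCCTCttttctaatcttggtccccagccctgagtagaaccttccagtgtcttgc
Fcgr3: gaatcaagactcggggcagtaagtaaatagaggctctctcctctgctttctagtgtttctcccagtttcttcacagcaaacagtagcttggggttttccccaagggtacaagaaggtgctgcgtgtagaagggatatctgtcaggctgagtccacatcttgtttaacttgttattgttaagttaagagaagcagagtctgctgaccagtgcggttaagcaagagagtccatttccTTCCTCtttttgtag
Fcgr4: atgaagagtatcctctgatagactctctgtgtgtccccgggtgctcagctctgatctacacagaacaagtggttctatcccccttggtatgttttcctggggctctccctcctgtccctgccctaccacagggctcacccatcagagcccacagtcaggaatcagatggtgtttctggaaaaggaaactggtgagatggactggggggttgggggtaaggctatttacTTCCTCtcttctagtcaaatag
Fcgr2b: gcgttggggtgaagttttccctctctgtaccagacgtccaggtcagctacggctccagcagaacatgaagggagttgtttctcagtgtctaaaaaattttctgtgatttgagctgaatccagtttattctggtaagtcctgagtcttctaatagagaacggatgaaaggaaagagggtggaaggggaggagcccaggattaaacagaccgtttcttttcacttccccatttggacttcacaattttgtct

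Both strands were searched. The PU.1 core lies 55 to 50 bases before the start of Fcgr1, 15 to 10 before that of Fcgr3 and 22 to 17 before that of Fcgr4, in each case on the reverse strand, and is not in the Fcgr2b window. It is in 23.3% of all 32851 promoter windows of this length. Of the other members only Fcer1a holds it, 216 to 211 bases before its start on the forward strand. The windows of Fcer1g, Ms4a2 and Fcer2a hold no match to it. The longest run shared by the windows of Fcgr1 and Fcgr3 is ttccttcctctttt, around the PU.1 core. It is in 3 of the 32851 windows, a count that includes those of Fcgr1 and Fcgr3 themselves. A run picked for its length is in few windows, so the count is no support for a shared site. For the other pairs of the 4 genes the longest run had 8 bases and was in 1.09% to 2.26% of windows. The run of Fcgr1 and Fcgr3 was looked for after the windows had been seen. The match is a description of letters and not of a bound site. A STAT6-type match (TTC and GAA with 4 bases between them, the spacing preferred by the interleukin-4-activated factor STAT6) was in none of these 4 windows and in 5.9% of all windows. One was found 168 to 159 bases before the second of 3 annotated starts of Fcer2a.

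Probe sequences are shown for the second probes of Fcgr1 and Fcgr3 and the dimmest of Fcgr2b, which repeat the results of the brightest probes at another place in the transcript. The array files give them at chr3:96158425-96158488, chr1:171030474-171030533 and chr1:170942178-170942237 (mm7), each on the minus strand.
Fcgr1 second probe: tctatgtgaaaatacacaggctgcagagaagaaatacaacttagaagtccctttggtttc
Fcgr3 second probe: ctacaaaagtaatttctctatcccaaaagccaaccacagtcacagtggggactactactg
Fcgr2b dimmest probe: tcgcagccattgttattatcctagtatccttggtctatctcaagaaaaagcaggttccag

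Of the probes other than controls, 71.16% to 78.87% per array were well above background. The Foxa3 probe itself exceeded background on all 6 wild-type arrays and on 0 of the 5 from knockouts. All 10 listed lung-resident marker genes were measured. The 4 groups are spread over 3 slides, with 1 array each on slides 1 and 2 and the knockout saline group missing from slide 3. Levels below are log2 intensity minus the array's 75th percentile of it. They compare a probe between arrays, not one gene with another.

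OVA was followed by higher levels of most IgG receptor genes. In wild type 5 of the 7 measured genes rose (Fcgr1, Fcgr3, Fcgr4, Fcgr2b and Fcer1g), against 10.9% of 21875 genes called higher and 18.8% called in either direction (limma, Benjamini-Hochberg adjusted p under 0.05). None of the 7 was called lower. In the knockout 3 of 7 rose (Fcgr1, Fcgr3 and Fcgr2b), against 6.45% of genes called higher and 8.23% called in either direction. The median difference over the 7 genes was 1.26 in wild type and 0.95 in the knockout, beside medians of 0.02 and -0.01 over all genes tested. The groups' arrays did not overlap for 5 of 7 genes in wild type and 4 of 7 in the knockout, where 42.6% and 48.7% of all genes did not overlap. Without the arrays of slide 1, 7 arrays are left, with only 1 for knockout saline, so calls are not given. The wild-type differences were then 3.11 for Fcgr1, 1.73 for Fcgr3, 1.09 for Fcgr4, 2.31 for Fcgr2b and 1.19 for Fcer1g. In the knockout they were 2.13 for Fcgr1, 1.44 for Fcgr3 and 2.48 for Fcgr2b.

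**Figure D1:**
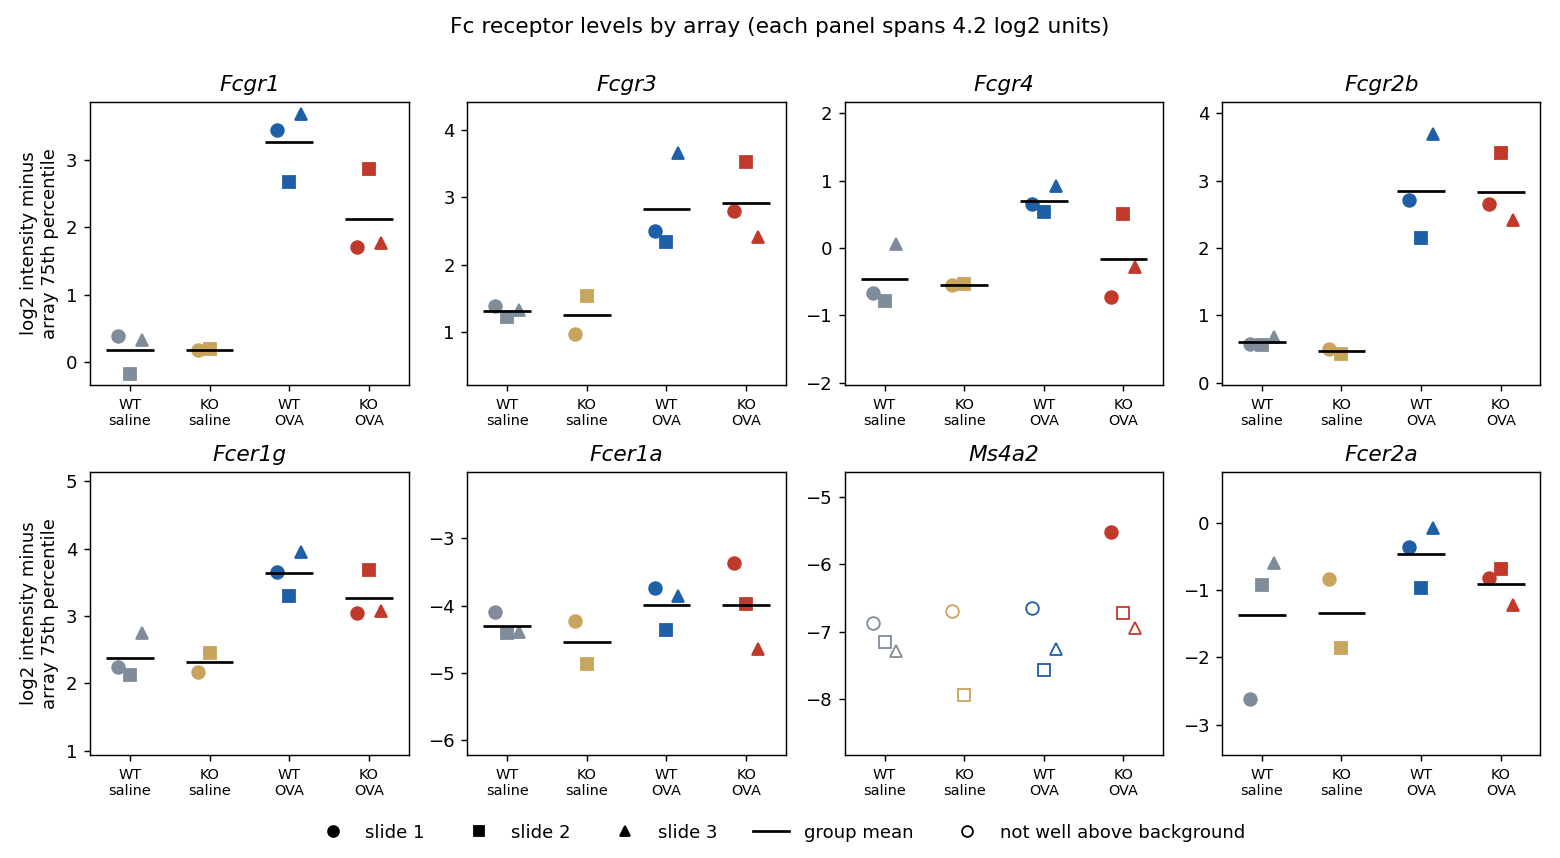
Level of each of the 8 genes on each array (log2 intensity minus the array's 75th percentile, brightest probe), by genotype and challenge, with the slide as symbol and the group mean as a line where the gene was measured. The OVA arrays lie above the saline arrays of both genotypes for Fcgr1, Fcgr3, Fcgr2b and Fcer1g, the knockout OVA arrays of Fcgr4 reach down to -0.72, and Ms4a2 is well above background (filled symbol) on 1 array.

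**Figure D2:**
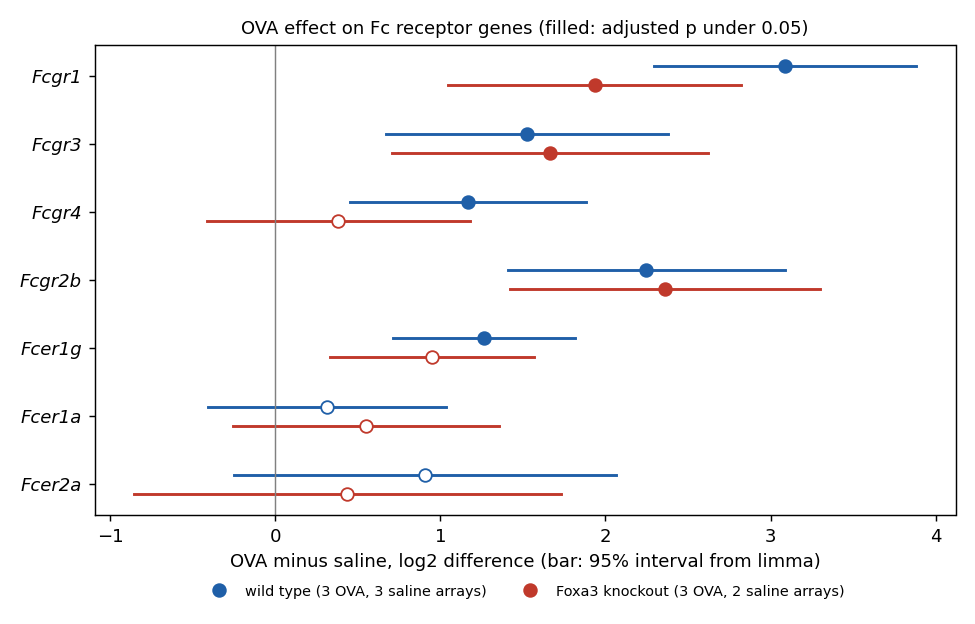
OVA minus saline on the log2 scale for the 7 measured genes in wild type (blue) and Foxa3 knockout (red), with 95% intervals from limma; filled points passed an adjusted p of 0.05. Fcgr1 has the highest estimate in wild type (3.09), and Fcgr2b has the highest in the knockout (2.36).

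Fcgr1, the high-affinity IgG receptor of monocytes and macrophages, had the largest wild-type difference of the 7 genes. Its level was 0.39, -0.17 and 0.32 on wild-type saline arrays 1 to 3 and 0.19 and 0.18 on the knockout saline arrays. It was 2.68, 3.69 and 3.44 on wild-type OVA arrays 1 to 3 and 1.71, 1.77 and 2.87 on knockout OVA arrays 1 to 3. All 6 OVA arrays lie above all 5 saline arrays, and knockout OVA array 3 is the only knockout array that reaches the wild-type OVA range. Fcgr1 rose by 3.09 in wild type (SE 0.35, 8.51-fold, limma adjusted p = 0.00201, n = 3 and 3) and by 1.93 in the knockout (SE 0.39, 3.82-fold, adjusted p = 0.0233, n = 3 and 2). Ranked by its difference in wild type, Fcgr1 was number 82 of 21875 genes. Within slides the difference was 3.05, 2.85 and 3.36 in wild type and 1.53 and 2.68 in the knockout. The second Fcgr1 probe gave 3.26 and 2.01. The knockout call was lost without knockout OVA array 3 (adjusted p = 0.0502), without knockout saline array 1 (0.143) or 2 (0.124), with slide as a block (0.0675) and with only the groups compared in the fit (0.0815).

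Fcgr3, the low-affinity activating IgG receptor found on most myeloid cells and natural killer cells, rose in both genotypes. Its level was 1.39, 1.22 and 1.32 on the wild-type saline arrays and 1.53 and 0.97 on the knockout saline arrays. It was 2.34, 3.66 and 2.50 on the wild-type OVA arrays and 2.80, 2.42 and 3.53 on the knockout OVA arrays. The OVA and saline arrays do not overlap, and wild-type array 2 and knockout array 3 stand at the top of their groups. The difference was 1.52 in wild type (SE 0.38, 2.88-fold, limma adjusted p = 0.0281) and 1.66 in the knockout (SE 0.42, 3.17-fold, adjusted p = 0.0458). Within slides it was 1.12, 1.12 and 2.34 in wild type and 1.83 and 2.00 in the knockout. The second probe gave 1.77 and 1.93. Both calls sit close to the threshold. With slide as a block the adjusted p was 0.0508 in wild type and 0.0982 in the knockout. The wild-type call was lost without wild-type OVA array 2 (1.11, adjusted p = 0.0772) or 3 (0.062) or any wild-type saline array (0.0696 to 0.0874). The knockout call was lost in 8 of 11 fits that left out 1 array, namely knockout OVA array 1 or 3, wild-type OVA array 3, or any saline array (adjusted p up to 0.232).

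Fcgr4, the activating receptor that favours mouse IgG2a and IgG2b, rose in wild type. Its level was -0.67, -0.78 and 0.06 on the wild-type saline arrays and -0.54 and -0.55 on the knockout saline arrays. It was 0.54, 0.91 and 0.65 on the wild-type OVA arrays and -0.72, -0.27 and 0.51 on the knockout OVA arrays. The wild-type OVA arrays lie above every saline array, while in the knockout the OVA array of slide 1 lies below both saline arrays. The difference was 1.17 in wild type (SE 0.32, 2.24-fold, limma adjusted p = 0.0363) and 0.38 in the knockout (SE 0.35, adjusted p = 0.508, 95% interval -0.42 to 1.18). The knockout value was 0.05 without knockout OVA array 3 and 0.66 without knockout OVA array 1. Within slides it was 1.32, 1.32 and 0.86 in wild type, and -0.17 and 1.04 in the knockout. The wild-type call was lost with slide as a block (0.0504), with median scaling (0.0511), and without wild-type OVA array 2 or 3, wild-type saline array 1 or 2 or either knockout saline array (0.0556 to 0.125).

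Fcgr2b, the one inhibitory receptor of the group, rose in both genotypes. Its level was 0.58, 0.56 and 0.67 on the wild-type saline arrays and 0.43 and 0.50 on the knockout saline arrays. It was 2.15, 3.70 and 2.71 on the wild-type OVA arrays and 2.66, 2.42 and 3.41 on the knockout OVA arrays. No OVA array comes near the saline range, and the 2 OVA groups cover each other. The difference was 2.25 in wild type (SE 0.37, 4.75-fold, limma adjusted p = 0.00723) and 2.36 in the knockout (SE 0.42, 5.14-fold, adjusted p = 0.013). Within slides it was 2.13, 1.59 and 3.02 in wild type and 2.15 and 2.98 in the knockout. The other probes gave 2.27 and 2.33 in wild type and 2.37 and 2.51 in the knockout. The brightest Fcgr2b probe is printed in 10 spots per array, whose SD ran from 0.06 to 0.11 within an array, against an SD of 0.79 between the 3 wild-type OVA arrays. The knockout call was lost without knockout saline array 1 (adjusted p = 0.109) or 2 (0.0802). Coding sequences of Fcgr2b and Fcgr3 are closely related, and whether a probe of one also binds the other's RNA was not tested.

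Fcer1g, the adaptor needed by the activating receptors and by the IgE receptor, rose in wild type. Its level was 2.25, 2.12 and 2.75 on the wild-type saline arrays and 2.45 and 2.17 on the knockout saline arrays. It was 3.30, 3.96 and 3.66 on the wild-type OVA arrays and 3.04, 3.07 and 3.68 on the knockout OVA arrays. In both genotypes every OVA array lies above every saline array. The difference was 1.26 in wild type (SE 0.24, 2.40-fold, limma adjusted p = 0.0131) and 0.95 in the knockout (SE 0.27, 1.93-fold, adjusted p = 0.0638). Within slides it was 1.41, 1.18 and 1.21 in wild type and 0.87 and 1.22 in the knockout. The second probe gave 1.22 and 1.04. In the knockout Fcer1g passed the threshold of 0.05 in 4 of 13 alternative settings (adjusted p 0.0356 to 0.0463) and without wild-type OVA array 1 (0.046). In wild type the call was lost without wild-type OVA array 2 (0.0535) or 3 (0.051) or wild-type saline array 2 (0.0533).

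Both IgE receptor chains of mast cells and basophils were dim. Fcer1a was well above background on all 11 arrays, but its intensity was only 43.7 to 106 units. Its level was -4.09, -4.41 and -4.40 on the wild-type saline arrays and -4.86 and -4.23 on the knockout saline arrays. It was -4.36, -3.86 and -3.73 on the wild-type OVA arrays and -3.37, -4.64 and -3.98 on the knockout OVA arrays. The 4 groups overlap. The difference was 0.31 in wild type (SE 0.32, 95% interval -0.41 to 1.04, limma adjusted p = 0.52) and 0.55 in the knockout (SE 0.36, 95% interval -0.26 to 1.36, adjusted p = 0.333). The Ms4a2 probe was well above background on 1 of 11 arrays, knockout OVA array 1, at an intensity of 24.0 units, and read 4.78 to 12.5 units on the other 10. That array is also the one with the highest Fcer1a level. Of the mast cell and basophil markers, 11 of 13 were measured, with 1 higher (Mcpt2, which exceeded background on only 2 of 11 arrays) and 1 lower (Kit) in wild type and 2 higher (Cpa3 and Mcpt8) in the knockout. Their median level ran from -3.91 to -3.39 in wild-type saline, -3.18 to -3.03 in wild-type OVA, -4.46 to -4.40 in knockout saline and -4.06 to -3.13 in knockout OVA arrays, so that it was higher on every OVA array than on the saline arrays of its genotype. Their summed level ran from 4.76 to 5.03 and 4.85 to 5.14 in wild-type and knockout saline arrays, and from 4.68 to 5.04 and 4.74 to 5.04 in wild-type and knockout OVA arrays. The mucosal mast cell protease Mcpt1 was well above background on 0 of 5 saline arrays, 2 of 3 wild-type OVA arrays and 3 of 3 knockout OVA arrays.

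Fcer2a, CD23, did not pass the test in either genotype. Its level was -2.62, -0.92 and -0.59 on the wild-type saline arrays and -1.85 and -0.83 on the knockout saline arrays. It was -0.97, -0.07 and -0.37 on the wild-type OVA arrays and -0.82, -1.22 and -0.69 on the knockout OVA arrays. Wild-type saline array 1 stands far below the rest, and the groups overlap. The difference was 0.91 in wild type (SE 0.51, 95% interval -0.25 to 2.07, limma adjusted p = 0.234) and 0.44 in the knockout (SE 0.57, 95% interval -0.86 to 1.73, adjusted p = 0.659). Without wild-type saline array 1 the wild-type difference was 0.29. The median level of the 10 B cell markers was also lowest on that array (-1.22), and after the group means were subtracted Fcer2a and that median correlated at r = 0.99 over the 11 arrays, which share libraries and slides. The summed B cell marker level ran from 2.93 to 4.47 in wild-type saline, 3.60 to 4.39 in knockout saline, 4.47 to 4.81 in wild-type OVA and 3.88 to 4.03 in knockout OVA arrays. All 10 markers had a lower mean in knockout than in wild-type OVA arrays (log2 differences of -0.88 to -0.51), with none called. Their part in the Fcer2a values was not tested.

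Most macrophage and monocyte markers rose after OVA, as the IgG receptors did. Of 14 listed, all measured, 11 rose in wild type after OVA and 8 in the knockout. Their median level ran from 1.59 to 1.71 in wild-type saline, 1.47 to 1.52 in knockout saline, 2.83 to 3.26 in wild-type OVA and 2.66 to 3.13 in knockout OVA arrays. Their summed level ran from 8.07 to 8.27, 8.27 to 8.60, 8.59 to 8.77 and 8.42 to 8.48 in the same order. In the knockout the summed level of the OVA arrays thus lay within the saline range. With group means subtracted, that median correlated with Fcgr1 at r = 0.94, with Fcer1g at 0.89, with Fcgr2b at 0.88, with Fcgr4 at 0.83 and with Fcgr3 at 0.80, but with Fcer1a at 0.02. These are descriptions over 11 arrays that share slides and scaling. In whole lung, more or fewer cells of a type and more or less RNA per cell cannot be told apart, and the part of the markers in the receptor values was not tested. Markers of other cells moved in the same comparisons. Of 9 dendritic cell markers, cells that also carry these receptors, 4 rose in wild type and 3 in the knockout, among them Itgax (1.66 and 2.11) and H2-Ab1 (1.09 and 1.14). Their summed level was 5.91 to 5.996 and 5.72 in wild-type and knockout saline arrays and 6.79 to 7.34 and 6.79 to 7.16 in wild-type and knockout OVA arrays. Of 8 measured T cell markers 6 rose in wild type and 1 in the knockout, with median differences of 1.20 and 0.55. Of 9 measured eosinophil markers 3 rose and 1 fell in wild type, and 4 rose and 1 fell in the knockout. Of the 10 lung-resident markers 1 rose (Sftpd) and 2 fell (Pecam1 and Cdh5) in wild type, and 1 fell in the knockout (Pecam1). Of 8 measured neutrophil markers 0 were called by limma in either genotype, with 1 in each at an unadjusted p under 0.05. Natural killer cells also carry Fcgr3. Of 9 natural killer markers, 4 rose in wild type, and all 9 had a lower mean in knockout than in wild-type OVA arrays (-0.98 to -0.40), with none called. The part of these other cell types in the receptor values was not tested either. No marker in these lists was called for the difference of the OVA effects between genotypes.

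Between the genotypes, 0 of the 7 genes passed the test in limma. At an unadjusted p under 0.05 there were 0 of 7 after saline, beside 3.26% of all genes, and 2 of 7 after OVA, beside 5% of all genes. After saline all differences lay between -0.25 and 0.04, where 0.096% of genes were called. After OVA they lay between -1.15 (Fcgr1) and 0.08 (Fcgr3), where 0.21% of genes were called, and the arrays of the 2 genotypes did not overlap for 1 of 7 genes (Fcgr4), as for 8.18% of all genes. Fcgr1 and Fcgr4 had the lowest estimates. For Fcgr1 the log2 difference in knockout against wild-type OVA lungs was -1.15 (SE 0.35, 95% interval -1.95 to -0.36, unadjusted p = 0.00968, limma adjusted p = 0.572). Fcgr4 differed by -0.86 (SE 0.32, 95% interval -1.58 to -0.15, unadjusted p = 0.0229, adjusted p = 0.815). Neither passed after adjustment over 21875 genes.

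Each slide holds 1 array of either OVA group, so slide and sample cannot be told apart. For Fcgr1, Fcgr3, Fcgr4 and Fcgr2b, slide 2 pairs the lowest wild-type OVA array (1) with the highest knockout OVA array (3). The genotype difference was not the same on every slide. For Fcgr1 it was -1.73 on slide 1, 0.19 on slide 2 and -1.92 on slide 3, and for Fcgr4 it was -1.38, -0.03 and -1.19. For Fcgr2b it was -0.05, 1.27 and -1.28, and for Fcgr3 0.30, 1.19 and -1.24. The Fcgr1 difference was lower than those of Fcgr2b and Fcgr3 on every slide, and the Fcgr4 difference on slides 1 and 2 but not on slide 3. The median macrophage marker level differed in the same directions as Fcgr1, by -0.42, 0.30 and -0.46. The medians of T cell markers (-0.48, 0.24 and -0.45) and of mast cell and basophil markers (-0.28, 0.05 and -1.01) did so too. Those of the other marker lists did not. Fcgr2b had these directions as well, and so did Fcer1g (-0.62, 0.38 and -0.89). The part of any cell type in these differences was not tested. The difference of the OVA effects between genotypes was -1.15 for Fcgr1 (SE 0.53, unadjusted p = 0.0564, limma adjusted p = 1) and -0.79 for Fcgr4 (SE 0.47, unadjusted p = 0.131, adjusted p = 1). Without knockout OVA array 1 the Fcgr4 value was -0.51. It was 0.14 for Fcgr3 (95% interval -1.14 to 1.43) and 0.11 for Fcgr2b (-1.15 to 1.37). For this difference 0 of 7 members and 0.00457% of all genes were called.

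**Figure D3:**
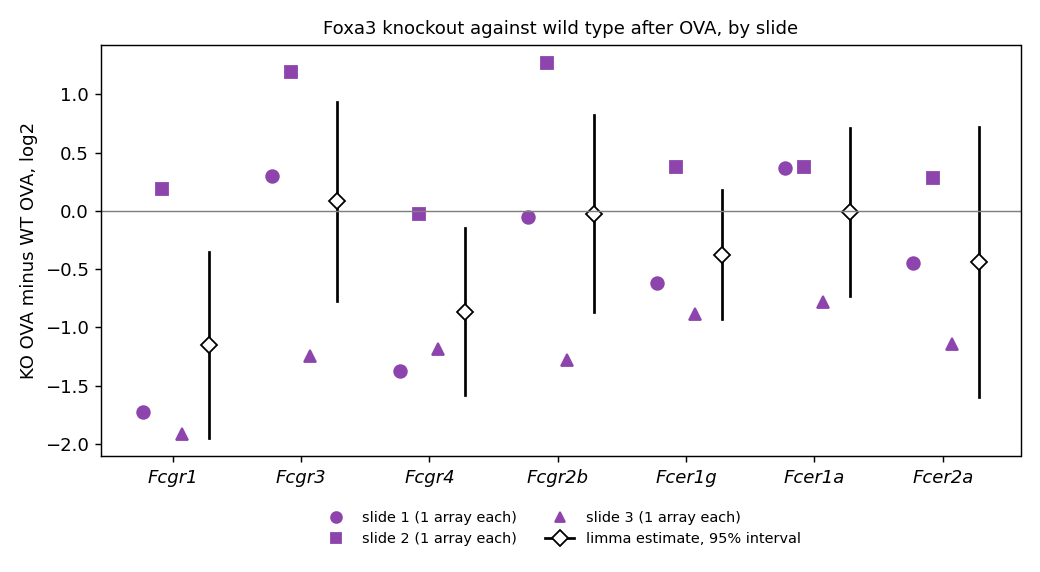
Foxa3 knockout minus wild type after OVA for the 7 measured genes on the log2 scale. Filled symbols are the difference of the 2 OVA arrays on each slide, and open diamonds with bars are the limma estimate with its 95% interval; slide 2 gives the highest value for each gene, and slide 1 and slide 3 lie below -1.1 for Fcgr1 and Fcgr4.

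The balance between activating receptors and Fcgr2b was read as a difference within each array, which removes the array's scaling. Only its change between groups has a meaning, since different probes are subtracted. No test was made on it. For Fcgr1 minus Fcgr2b the values were -0.19, -0.73 and -0.35 on the wild-type saline arrays and -0.24 and -0.33 on the knockout saline arrays. They were 0.53, -0.01 and 0.73 on the wild-type OVA arrays and -0.94, -0.65 and -0.54 on the knockout OVA arrays. In wild type all OVA arrays lie above all saline arrays, and in the knockout all lie below. Such separation is common in these OVA comparisons. Among single genes, 42.6% in wild type and 48.7% in the knockout did not overlap. The share among differences of 2 genes was not computed. The mean change with OVA was 0.84 in wild type and -0.43 in the knockout. Between the 2 OVA groups the knockout was lower on each of the 3 slides, by -1.67, -1.08 and -0.63. All 6 pairings of a Fcgr1 probe with a Fcgr2b probe gave this order of arrays, with changes of 0.75 to 1.01 in wild type and -0.57 to -0.35 in the knockout. These pairings use the same arrays, so they are no repeats of the result, and they were examined after the values had been seen.

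The other 3 differences were lower after OVA in both genotypes. Fcgr3 minus Fcgr2b changed by -0.72 in wild type and -0.70 in the knockout, Fcgr4 minus Fcgr2b by -1.08 and -1.98, and Fcer1g minus Fcgr2b by -0.98 and -1.41. For each of them every OVA array lies below every saline array of its genotype, a separation that is common in these OVA comparisons. The log2 level of Fcgr2b thus changed by more than those of Fcgr3, Fcgr4 and Fcer1g on these arrays. For Fcgr4 the knockout OVA arrays (-3.38, -2.69 and -2.90) reach the lowest wild-type OVA array (-2.78), and the genotype difference by slide was -1.32, -1.29 and 0.09.

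**Figure D4:**
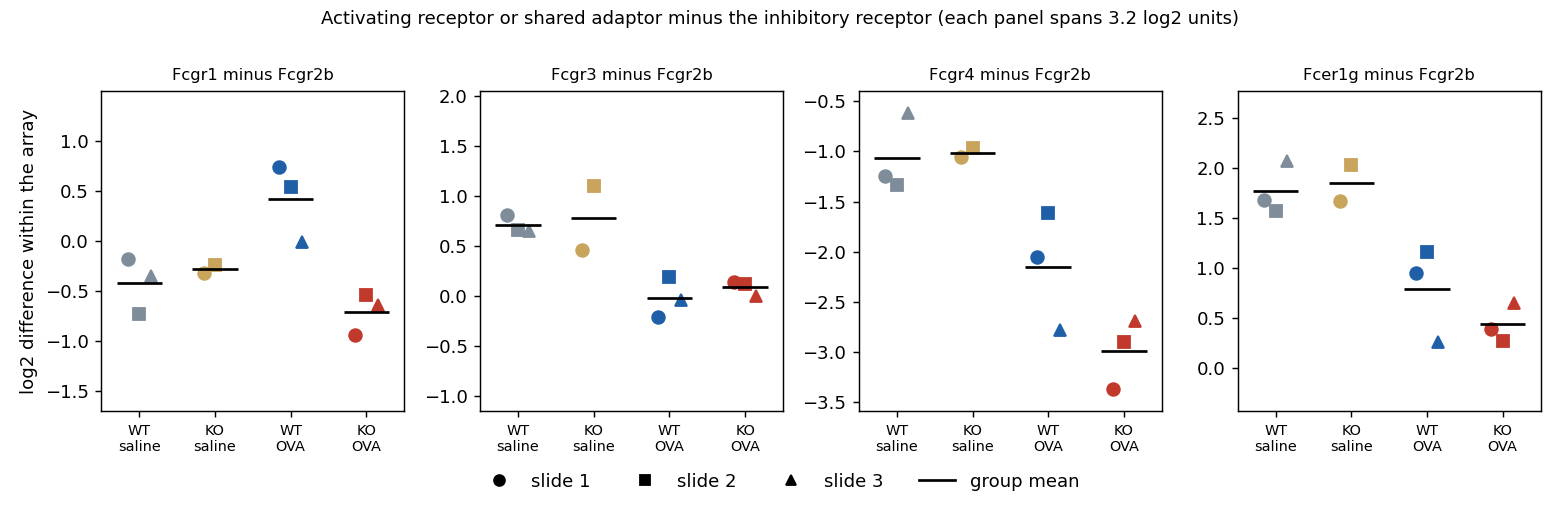
Within-array log2 difference between an activating receptor or the adaptor and Fcgr2b on each array, by group, with the slide as symbol and the group mean as a line; the position of 0 has no meaning, since the probes differ. For Fcgr1 the group mean goes from -0.42 to 0.42 with OVA in wild type and from -0.29 to -0.71 in the knockout, while the other 3 are lower after OVA in both.

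Members differed in how alike they were. Over the 11 arrays Fcgr3 and Fcgr2b correlated at r = 0.98 (0.92 with group means subtracted), Fcgr1 and Fcer1g at 0.97 (0.86) and Fcgr4 and Fcer1g at 0.88 (0.88). Fcgr4 was less alike to Fcgr3 (0.68) and Fcgr2b (0.71). Fcer1a and Fcer2a correlated with the other members at 0.24 to 0.63. These values describe 11 arrays that hold the OVA response in common.

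The genes closest in pattern over the 11 arrays differed from member to member. For Fcgr1 they were Il18bp, the secreted inhibitor of interleukin 18 (r = 0.99, 0.95 with group means subtracted), Ifi207, an interferon-inducible gene, and Pla1a. For Fcgr4 they were the RNA sensor Tlr7 (0.98, 0.95), Fgd3 and Zbtb7b. Fcgr2b lay closest to Ifi30, a lysosomal thiol reductase of antigen-presenting cells (0.998, 0.98), Gatm and Clec4b1, and Fcgr3 to the protease Adam8 (0.99, 0.97), Thyn1 and Nudt21. For Fcer1g they were the adaptor Sla (0.99, 0.99), Tnfaip8l2 and Spi1, which encodes PU.1 (0.99, 0.98). Fcer2a lay closest to Bfsp2 (0.97, 0.97), the B cell scaffold Bank1 (0.96, 0.97) and Cd37 (0.96, 0.98), and Fcer1a to Serbp1 (0.93, 0.91), Vwa5b1 and 9930104L06Rik. With OVA Il18bp changed by 2.55 in wild type and 1.71 in the knockout and Tlr7 by 0.98 and 0.40, beside 3.09 and 1.93 for Fcgr1 and 1.17 and 0.38 for Fcgr4, the last of which ran from 0.05 to 0.66 with arrays left out. The 2 genotypes were compared with their own saline arrays. Il18bp and Tlr7 were picked as closest in pattern over these same 11 arrays. Alike changes thus follow from the choice and are no separate evidence.

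Downstream of the receptors, 19 of 30 measured genes of receptor-proximal signalling rose and 1 fell (Plcg1) in wild type after OVA, and 7 rose and 0 fell in the knockout. Their median difference was 0.69 in wild type and 0.53 in the knockout. None of the 30 was called for the difference of the OVA effects between genotypes. Wild type has 3 saline arrays and the knockout 2, so numbers of calls alone do not compare the genotypes. Syk, the kinase recruited by Fcer1g, rose in wild type by 0.90 (limma adjusted p = 0.0285) and differed by 0.71 in the knockout (adjusted p = 0.102). Lyn, a Src family kinase that phosphorylates the receptors' motifs, differed by 0.16 and 0.14 and did not pass (0.408 and 0.563). The adaptors Lat (1.14 and 0.95), Lat2 (1.77 and 1.82) and Lcp2 (1.40 and 1.23) and the kinase subunit Pik3r5 (1.08 and 1.04) rose in both genotypes.

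On the inhibitory side 4 of 11 measured genes rose in wild type and 1 in the knockout, and 0 fell. Inpp5d, the phosphatase recruited by Fcgr2b, differed by 0.30 and 0.28 (limma adjusted p = 0.105 and 0.189). The phosphatase SHP-1 (Ptpn6) rose in wild type by 1.08 (0.0165) and differed by 0.69 in the knockout (0.11). The adaptor Dok2 rose in both (2.09 and 2.24), and Dok1 (0.68) and the kinase Csk (0.44) rose in wild type.

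Of 23 phagocytosis effectors, all measured, 15 rose and 1 fell (Amph) in wild type, and 6 rose and 0 fell in the knockout, with median differences of 0.84 and 0.53. The oxidase subunits Cybb (1.5 and 1.07) and Ncf4 (1.36 and 1.1), the actin regulator Hcls1 (1.41 and 1.15) and the Arp2/3 subunit Arpc1b (0.84 and 0.69) rose in both genotypes.

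A further list held other activating receptors of myeloid cells, platelets and natural killer cells, many of which signal through Fcer1g, and the adaptor Tyrobp. Of its 14 measured genes, 5 rose and 1 fell in wild type, and 3 rose and 1 fell in the knockout, with median differences of 0.65 and 0.29. The lectins Clec4n (1.37 and 1.5) and Clec7a (2.35 and 2.12), the latter with a signalling motif in its own tail, and the lipid receptor Trem2 (3.03 and 3.08), which by background pairs with the adaptor Tyrobp, rose in both. Tyrobp rose in wild type by 0.85 (limma adjusted p = 0.0225) and differed by 0.59 in the knockout (0.11). The collagen receptor of platelets Gp6 fell in both (-0.94 and -0.76). These lists were chosen with earlier results of these data known, and their counts are read beside the 10.9% and 6.45% of all genes called higher. None of their genes was called for the difference of the OVA effects between genotypes.

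**Figure D5:**
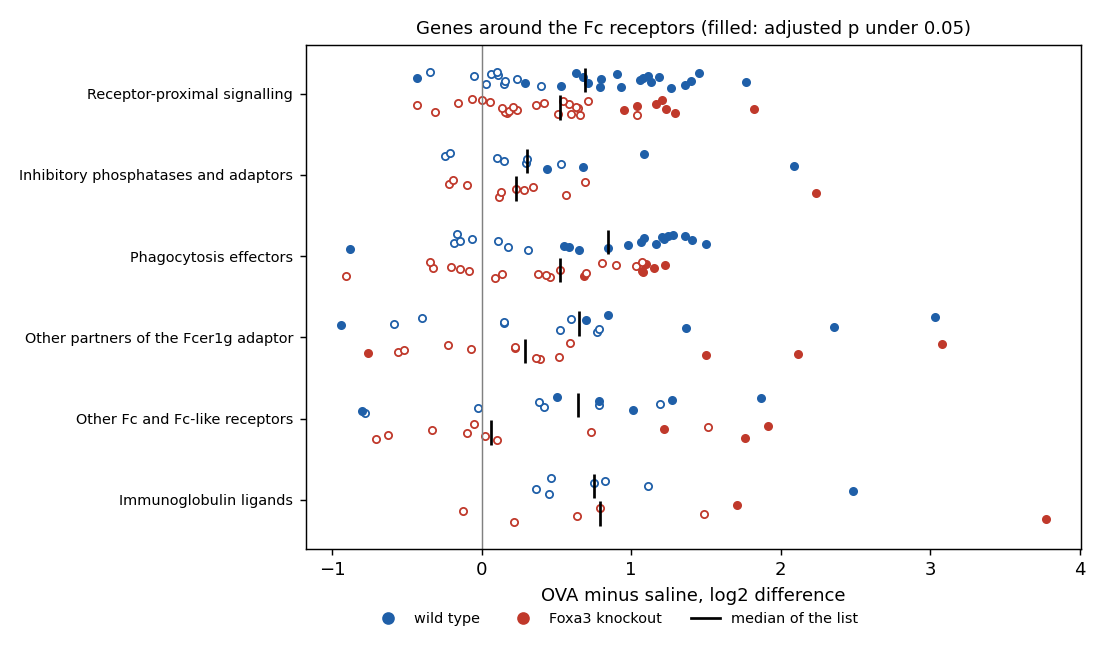
OVA minus saline log2 difference of every measured gene in 6 lists around the Fc receptors, in wild type (blue) and Foxa3 knockout (red), filled where the adjusted p was under 0.05, with the median of each list as a line. Trem2 (3.03 and 3.08), Clec7a (2.35 and 2.12) and Dok2 (2.09 and 2.24) lie far to the right in both genotypes. More points are filled in wild type, which has 3 saline arrays against 2 in the knockout.

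Of 12 measured genes for other Fc and Fc-like receptors, 5 rose and 1 fell in wild type, and 3 rose and 0 fell in the knockout, with median differences of 0.64 and 0.06. The polymeric immunoglobulin receptor Pigr, which carries IgA and IgM across epithelium, rose by 1.87 in wild type (limma adjusted p = 0.00343) and 1.92 in the knockout (0.00664), and the IgA and IgM receptor Fcamr by 1.01 (0.00348) and 1.76 (0.00123). Fcrls rose by 0.79 and 1.22, and Trim21, a receptor for antibody in the cytosol, rose by 0.50 in wild type (0.041). The neonatal Fc receptor Fcgrt, which recycles IgG, differed by -0.02 and 0.02 and did not pass. None of the 12 genes was called for the difference of the OVA effects between genotypes.

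Among the immunoglobulin ligands 7 of 14 listed genes were measured, and 1 rose in wild type and 2 in the knockout. Igh-1a, an IgG2a heavy chain entry, rose by 2.48 in wild type (limma adjusted p = 0.0142) and 3.77 in the knockout (0.00664). The joining chain Jchain differed by 0.47 in wild type (0.35) and rose by 1.71 in the knockout (0.0298). Ighg1, the IgG1 heavy chain, differed by 1.11 (0.172) and 1.49 (0.137), the IgG entry Ighg by 0.36 (0.352) and 0.64 (0.18), and Ighm by 0.75 (0.191) and -0.12 (0.884). None of the immunoglobulin genes was called between the genotypes or in the difference of the OVA effects.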

How the data were processed

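Lung RNA of 11 samples was measured on one-colour arrays and grouped by genotype and challenge as labelled. The members and gene lists were chosen with earlier results of these data known. The scanner files hold each spot's background-subtracted intensity from Agilent Feature Extraction, version 9.5.1.1 per the file headers and 9.1 per the submitters' processing notes, with probe positions on mm7. The authors also deposited a log2 value table by a method not given in the sources used here, which served as an alternative.

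Control and outlier spots were left out, spots of a probe were averaged, and intensities were taken as log2 minus the 75th percentile of their array. A probe had to be well above background on 2 or more of the 11 arrays (32946 probes, 21875 genes, 125 of them without a value on some array). The brightest probe stood for its gene. The files' gene names are old. They were updated with a GRCm38.p6 RefSeq table: 22951 probes matched by accession, 6659 by current symbol and 3109 by synonym, and 8455 kept the file's name. All 11 arrays entered 1 fit in limma 3.58.1 under R 4.3.3, with a mean for each group (residual degrees of freedom 7, prior 1.95), two-sided, with Benjamini-Hochberg adjustment over all genes. It was tested on simulated data. Array number limits the precision.

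All 8 members are described. From each list up to 4 called genes of smallest p per OVA comparison are named, with Syk, Lyn, Inpp5d, Ptpn6, Fcgrt, Pigr and the immunoglobulin genes always given, and the 3 genes of highest correlation with each measured member. Cell type marker genes were called in the same fit, while their median and summed levels were described, not tested. Alternatives covered background correction, scaling, filter, probe summary, fit, slide, replicate number and left-out arrays.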

Additional observations from a re-analysis of the deposited data

Results flagged for a closer look

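Fcgr1 minus Fcgr2b within the array moved in opposite directions with OVA in the 2 genotypes. The mean change was 0.84 in wild type, where every OVA array lay above every saline array. It was -0.43 in the Foxa3 knockout, where every OVA array lay below both saline arrays. In the same comparisons 42.6% and 48.7% of all single genes did not overlap. The 2 changes differ by -1.27 on the log2 scale. This difference was not tested, since the genes were chosen with results known. The order of arrays was the same with normexp background correction, quantile scaling and the authors' deposited log2 table, with changes of 0.78 to 0.84 in wild type and -0.46 to -0.41 in the knockout. A difference within an array removes most of the array's scaling, so these settings of the same arrays could hardly change it. These settings were added for this value after seeing the data. Groups of 2 or 3 arrays are too small for a check of single arrays that stand apart.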

How the results depend on the processing

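The 5 genes called in wild type kept their sign in both OVA comparisons under all 13 alternative settings and all 11 fits that left out 1 array. The calls of wild type were 5 of 7 members, but 3 with slide as a block, and left-out arrays gave 2 to 5. The calls of the knockout were 3 of 7, but 1 with slide as a block, 1 with only the groups compared and 1 with the replicate block. Left-out arrays gave up to 4. Fits that left 1 knockout saline array are not counted for the knockout. No member was called in the 3 other comparisons in any setting.

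Whether replicate numbers pair the samples was not settled. Deviations from the group means correlated at -0.40 to 0.34 for arrays with the same number and at -0.15 to 0.47 on the same slide. Arrays that share neither gave -0.47 to 0.37. Deviations within groups this small cancel out, and some arrays share both number and slide, so these values cannot decide on pairing. With the replicate block Fcgr3 was not called in wild type (adjusted p = 0.0567), Fcgr1 (0.0588) and Fcgr3 (0.124) were not called in the knockout, and the knockout OVA comparison called 715 genes.

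Some differences near 0 changed sign in knockout against wild type after OVA. Fcer1a gave 0.041 with quantile scaling, 0.0031 with median scaling and 7e-04 with the authors' deposited log2 table, Fcgr2b 0.011 with the mean of all probes and 0.058 with array weights, and Fcgr3 -0.025 without slide 1. With arrays left out they ran from -0.33 to 0.31 for Fcer1a, -0.38 to 0.40 for Fcgr2b and -0.23 to 0.49 for Fcgr3. The OVA difference of Fcer2a in the knockout ran from -0.075 to 0.95.

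Over all genes, 4108 were called for OVA in wild type, 1801 for OVA in the knockout, 21 between genotypes after saline, 46 after OVA and 1 for the difference of the OVA effects. With only the groups compared the first 4 counts were 2039, 444, 10 and 11, with array weights 10449, 3518, 54 and 102, with slide as a block 2717, 845, 12 and 24, and without slide 1 27, 13, 1 and 1. The knockout OVA count was 1185 with no filter, 2771 with a trended robust prior and 2856 with the authors' table. After OVA the genotypes differed in 84 genes with normexp, 95 with the trended robust prior and 95 with the authors' table. For the difference of the OVA effects 0 genes were called under normexp, quantile scaling, no filter and the trended robust prior. The same held for array weights, slide as a block, the replicate block and the authors' table. Left-out arrays gave 1052 to 6264, 83 to 3307, 11 to 23, 17 to 35 and 0 to 1 genes in the order above. The share of called genes that were higher was 57.9% in wild type and 78.3% in the knockout, against 47.4% and 57.5% with the authors' table and 64.6% and 64.2% with normexp, which moved the median of all genes in wild type from 0.02 to 0.13. Dim probes, here Fcer1a and Ms4a2, limit what the arrays can show.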
